A study of Aliger gigas with 7 samples.

Results

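The enzymes that make, recycle and break down purine and pyrimidine nucleotides were examined in the ovaries of wild queen conchs (Aliger gigas, labelled Strombus gigas in the series title), large marine snails of the Florida Keys. They were found by their names: of the 4328 gene titles in the deposited table, 37 contained a word of nucleotide metabolism, such as adenylosuccinate, phosphoribosyl, thymidine, nucleoside, nucleotidase or nudix. A title is the name that the authors attached to a conch sequence, often that of a vertebrate or plant protein, and the enzyme roles given below are those of the named proteins in other species. By the wording of their names, 28 of the 37 titles stood for nucleotide or folate enzymes and for transporters. The other 9 were caught by a shared word only: a tRNA-modifying enzyme, a pair of RNA-binding proteins, a plant enzyme of histidine synthesis and 5 titles made of general terms for ATP or GTP hydrolysis.

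RNA was compared between mature adult females of a nearshore and an offshore site, with 1 single-colour array per animal and no experimental treatment. Nearshore animals came from Tingler Island, where reproduction is impaired, and were NF1 and NF3, labelled normal females, and NM3, labelled an apparent imposex female, which is a female with male sexual characters. Offshore animals, OF1 to OF4, were normal females from Pelican Shoal, where conchs reproduce normally. The site and anything else that differed between the collections cannot be told apart in this design.

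Cells build purines on a ribose phosphate in a long chain of steps that ends in inosine monophosphate (IMP), from which separate branches lead to AMP and GMP. Folate coenzymes supply single carbons to this chain and to the synthesis of thymidylate, the building block found in DNA and not in RNA. Salvage kinases recycle nucleosides, and phosphoribosyltransferases recycle free bases. Phosphorylases split nucleosides, while nucleotidases remove phosphate and keep the pools in balance. A growing oocyte stores large amounts of RNA and of materials for the DNA synthesis of the early embryo.

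All 7 arrays had nearly equal mean log2 values, from 5.83 to 5.89, and all 37 titles had a value in each animal. The median of all titles lay at 5.17, and 18 of the 37 titles had a mean below it. The distance of such low values from background is not known, and levels of different titles depend on their probes and are not compared here. Vitellogenin 2, the yolk precursor expected of an ovary, had log2 values of 12.69, 17.03 and 16.35 in NF1, NF3 and NM3, against 16.81 to 17.34 in offshore animals. Of 7 muscle titles, Tropomyosin 1 and a myosin light chain title rose (28.6%, against 9.24% of all titles that passed). The other 5 did not pass, of which 2 had lower nearshore means. At an unadjusted p under 0.05 in limma, 3 were higher and 0 lower, against 26.1% of all titles in either direction. This added Titin (log2 fold change 1.42, sites without overlap). However, 7 titles are too few to compare the shares. The log2 of the summed signal of the 7 titles, to which the brightest contribute most, was 10.61 to 11.76 nearshore and 8.29 to 9.64 offshore. An obscurin title had no value in NM3 and is missing from the sum of that animal. Of 8 markers of ovary and germ cells, 0 passed in limma and 5 had an unadjusted p under 0.05, against 26.1% of all titles. Of these 5, nearshore means were higher for Boule and a zona pellucida-like title and lower for Piwi-like 1, Cyclin B1 and Cyclin B2. Only Piwi-like 1 had sites without overlap (log2 fold change -1.92, adjusted p = 0.0580 in limma). The summed signal of the 8 markers, which largely follows Vitellogenin 2, was 13.71 to 17.19 nearshore, lowest in NF1, and 17.11 to 17.51 offshore. The part of muscle or ovary cells in the changes described below was not tested. In whole ovary, a smaller share of cells of a type and less RNA per cell cannot be told apart.

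Of the 37 titles, 2 rose and 4 fell nearshore at an adjusted p under 0.05 in limma, fitted across all 4328 titles with Benjamini-Hochberg adjustment. The enzyme that starts the branch to AMP and the kinases that salvage thymidine fell, together with a nucleotidase that acts on deoxynucleotides. A nucleotidase that acts on IMP and GMP and the reductase that commits folate carbons to methionine rose. Among all titles 9.24% passed, 3.90% higher and 5.34% lower. The 6 calls make 16.2% of the 37 titles, and the median log2 fold change, nearshore over offshore, was 0.00 over the 37 and -0.01 over all titles. Means were higher nearshore in 18 of the 37 and lower in 19, so the description rests on the single enzymes. An unadjusted p under 0.05 was found in 10 of the 37, against 26.1% of all titles. The sites were without overlap in 11 of the 37 titles, or 29.7%, against 24.4% of all titles. Of these 11, 4 were higher and 7 lower nearshore, against 10.9% and 13.5% of all titles.

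**Figure D1:**
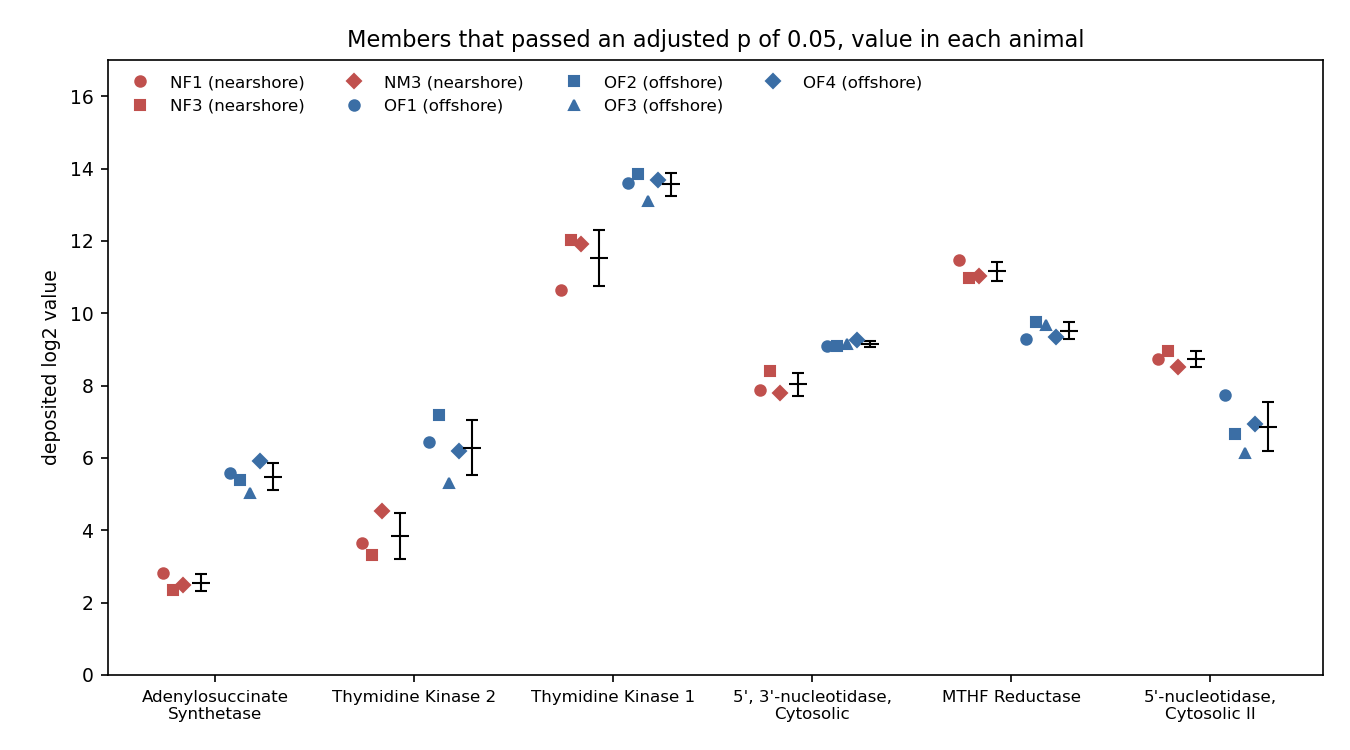
Deposited log2 value of the 6 nucleotide metabolism titles that passed an adjusted p of 0.05 in limma (vertical axis), for 3 nearshore animals (red) and 4 offshore animals (blue). Each point is 1 animal, and bars are the mean and SD of each site; the sites do not overlap in any of the 6, and the widest gap is that of Adenylosuccinate Synthetase.

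Purine synthesis was represented by 7 titles, of which 1 fell and 0 rose. Adenylosuccinate Synthetase, Non Muscle, which joins IMP to aspartate in the first step towards AMP, had log2 values of 2.81, 2.35 and 2.49 in NF1, NF3 and NM3, against 5.59, 5.38, 5.02 and 5.91 in OF1 to OF4. The lowest offshore value lay 2.21 above the highest nearshore value. Its log2 fold change was -2.93 (SE 0.28, adjusted p = 0.0108 in limma), a 7.60-fold lower signal. All 3 nearshore values lay well below the median of the table, so the size of this fold is uncertain. Alone among the 6 changed titles, it passed in all 7 fits that left out 1 animal, with changes from -3.08 to -2.78 and adjusted p-values from 0.0263 to 0.0449.

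The titles for steps before IMP did not pass. Phosphoribosylformylglycinamidine Synthase, an enzyme of the middle of the chain, had 7.97, 7.09 and 7.01 in NF1, NF3 and NM3, against 6.18, 6.63, 6.07 and 5.897 in OF1 to OF4. Every nearshore value was above every offshore value, by at least 0.38, but the log2 fold change of 1.17 (SE 0.33) did not pass, with an adjusted p of 0.0698 in limma. The title for the bifunctional enzyme Phosphoribosylaminoimidazole Carboxylase, Phosphoribosylaminoimidazole Succinocarboxamide Synthetase, which carries out later steps of the same chain, had 9.45, 9.30 and 7.85 nearshore, against 9.68, 10.89, 10.07 and 9.65 offshore. Here every nearshore value was below every offshore value, by as little as 0.19, and the log2 fold change of -1.20 (SE 0.49) did not pass either (adjusted p = 0.172 in limma). NM3, the imposex animal, had the lowest value of this title. Phosphoribosyl Pyrophosphate Amidotransferase, which commits ribose phosphate to purine synthesis, averaged 3.07 ± 0.39 nearshore (SD, n = 3) and 2.88 ± 0.18 offshore (n = 4). The 95% interval of its log2 fold change ran from -0.43 to 0.81.

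IMP dehydrogenase, which opens the branch from IMP to GMP, had 3 titles, and none of them passed in limma at an adjusted p under 0.05, the lowest unadjusted p being 0.283. IMP Dehydrogenase 1 averaged 2.34 ± 0.42 nearshore (SD, n = 3) and 2.63 ± 0.24 offshore (n = 4), and IMP Dehydrogenase 2 averaged 1.68 ± 0.55 and 1.63 ± 0.39 at the same sites. Both lay near the bottom of the scale. The third title, Inosine-5'-monophosphate Dehydrogenase-like Protein, varied widely within each site, with 8.79, 1.64 and 4.48 in NF1, NF3 and NM3, against 1.34, 4.87, 3.46 and 2.79 in OF1 to OF4. NF1 alone stood far above the rest, and NF3 was near OF1, the lowest animal. With an SE of 1.61, the log2 fold change of 1.86 became -0.05 when NF1 was left out.

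Among titles of purine salvage and breakdown, 0 of 2 passed in limma, and at an unadjusted p under 0.05 the count was 0 as well. Adenine Phosphoribosyltransferase, which turns adenine back into AMP, had 4.29, 3.22 and 4.08 in NF1, NF3 and NM3, against 4.34, 4.56, 4.67 and 4.76 in OF1 to OF4. The sites did not overlap, but OF1 and NF1 were only 0.04 apart, and the log2 fold change of -0.71 (SE 0.31) had an adjusted p of 0.201 in limma. Nucleoside Phosphorylase, which splits purine nucleosides into base and sugar phosphate, had 5.14, 1.73 and 3.31 nearshore, against 1.56, 3.55, 3.19 and 2.77 offshore. As with the IMP dehydrogenase-like title, NF1 was highest, followed by OF2, NM3, OF3, OF4, NF3 and OF1, so these titles placed the 7 animals in the same order.

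**Figure D2:**
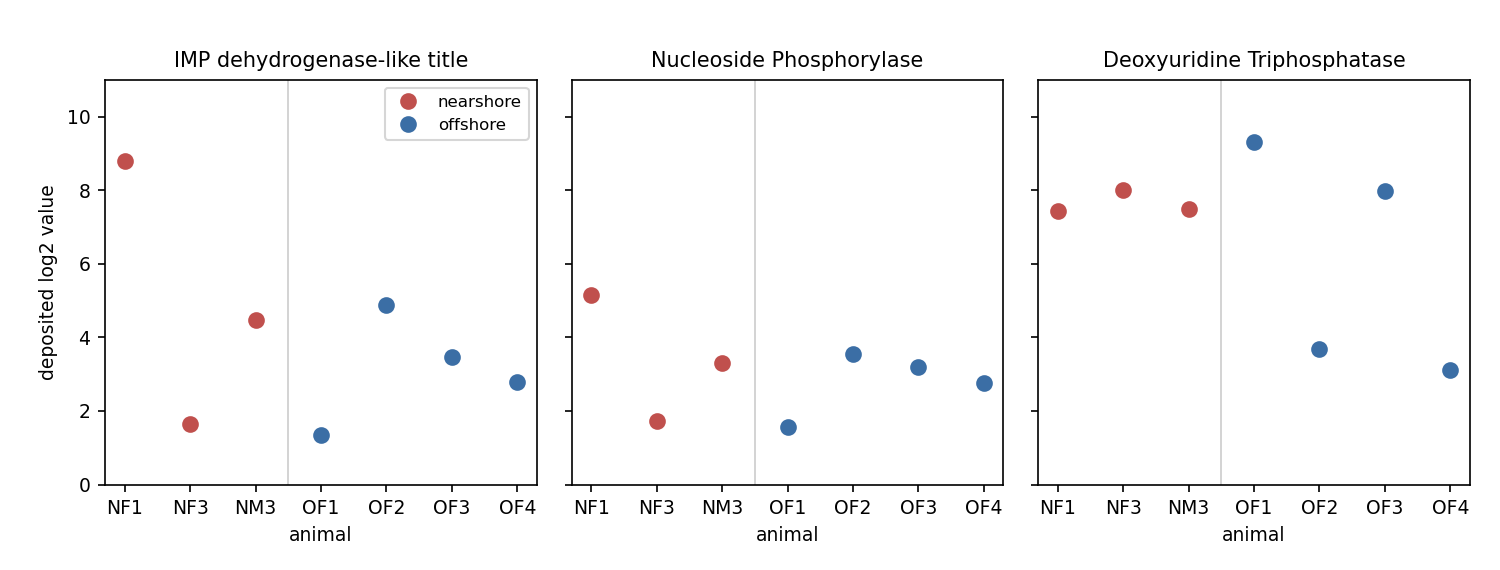
Deposited log2 value (vertical axis) of 3 titles with wide spread within a site, by animal, nearshore in red and offshore in blue. The IMP dehydrogenase-like title and Nucleoside Phosphorylase are highest in NF1 and lowest in OF1, and Deoxyuridine Triphosphatase is below 4 in OF2 and OF4 and above 7 in the other animals.

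In pyrimidine salvage 2 of 3 titles fell and 0 rose. Over all titles 5.34% fell, and 3 titles are too few to compare the shares. Thymidine Kinase 1, Soluble, the cytosolic enzyme that phosphorylates thymidine for DNA synthesis, had log2 values of 10.63, 12.03 and 11.92 in NF1, NF3 and NM3, against 13.59, 13.85, 13.10 and 13.69 in OF1 to OF4. It was bright in each animal, NF1 was lowest, and the sites were separated by 1.07. Nearshore minus offshore was -2.03 in log2 (SE 0.40, adjusted p = 0.0293 in limma), a 4.09-fold lower signal.

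Thymidine Kinase 2, Mitochondrial, which serves the copying of mitochondrial DNA, had 3.66, 3.32 and 4.54 in NF1, NF3 and NM3, against 6.45, 7.18, 5.32 and 6.20 in OF1 to OF4. The imposex animal NM3 was the nearshore animal closest to the offshore range, and 0.78 separated it from OF3. Nearshore minus offshore was -2.45 in log2 (SE 0.49, adjusted p = 0.0298 in limma), a 5.46-fold lower signal. All nearshore values lay below the median of the table, so the size of this fold is uncertain too. The thymidine kinases belong to different families in vertebrates in spite of their shared name. Uridine Phosphorylase 1, which splits uridine, had 7.96, 7.35 and 8.47 in NF1, NF3 and NM3, against 8.71, 8.60, 7.94 and 8.68 in OF1 to OF4. OF3 lay within the nearshore range, and the log2 fold change of -0.56 (SE 0.34) did not pass (adjusted p = 0.364 in limma).

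The calls on the thymidine kinases depended on which animal was left out. Thymidine Kinase 1 passed in 2 of the 7 fits without 1 animal, those without NF3 or NM3, with adjusted p-values up to 0.0806 in the others. Thymidine Kinase 2 passed only without NM3, with an adjusted p of 0.0366, and reached 0.0830 without NF1. In these 7 fits the log2 fold change ran from -2.28 to -1.58 for Thymidine Kinase 1 and from -2.80 to -2.15 for Thymidine Kinase 2.

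Deoxyuridine Triphosphatase, which makes the precursor of thymidylate and keeps uracil out of DNA, had 7.43, 8.02 and 7.49 in NF1, NF3 and NM3, against 9.31, 3.68, 7.98 and 3.11 in OF1 to OF4. The 3 nearshore animals lay close together, at 7.65 ± 0.32 (SD, n = 3), whereas offshore animals were spread at 6.02 ± 3.09 (n = 4). OF2 and OF4 were more than 3 below every other animal, and 99.4% of all titles had a smaller offshore SD. The log2 fold change of 1.63 (SE 1.52) did not pass (adjusted p = 0.555 in limma). The summed signal of 18 digestive gland markers, carried mostly by cathepsin L titles, was also lowest in OF2 and OF4, with log2 values of 12.57 and 11.91, against 17.002 in OF1 and 16.58 in OF3. A serine carboxypeptidase title had no value in OF1 and is missing from the sum of that animal. The nearshore sums were 15.63, 13.63 and 17.26 in NF1, NF3 and NM3. NF3 thus had the lowest nearshore sum but the highest nearshore value of Deoxyuridine Triphosphatase. Single markers differed in their pattern. A salivary amylase title was also lowest offshore in OF2 and OF4, at 5.83 and 4.81. The dimmer Similar To Amylase 1, Salivary went another way, with 1.76, 2.85, 2.79 and 2.24 in OF1 to OF4. Chymotrypsin-like was likewise highest offshore in OF2, at 5.67, and Carboxypeptidase A1 ran only from 6.79 to 7.40 offshore. Of the 18 markers 1 rose and 1 fell, and the part of digestive tissue in the spread of Deoxyuridine Triphosphatase was not tested.

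Kinases that move phosphate between nucleotides had 4 titles, and 0 of them passed in limma, with 1 at an unadjusted p under 0.05. That title, Similar To Nucleoside Diphosphate Kinase Homolog 5, is named after a protein of cilia and sperm tails in mammals. It had 9.33, 8.27 and 8.40 in NF1, NF3 and NM3, against 7.62, 7.82, 7.61 and 7.23 in OF1 to OF4. Every nearshore value was above every offshore value, by at least 0.45, and the log2 fold change was 1.10 (SE 0.33, adjusted p = 0.0821 in limma). Similar To Putative Adenylate Kinase 7, also named after a protein of mammalian cilia, had 4.79, 5.69 and 5.89 nearshore, against 4.80, 3.56, 5.71 and 5.10 offshore, and the sites overlapped. The general Nucleoside Diphosphate Kinase, which supplies nucleoside triphosphates, averaged 9.15 ± 0.85 nearshore (SD, n = 3) and 9.03 ± 0.67 offshore (n = 4). Its log2 fold change had a 95% interval from -1.06 to 1.31. Nucleoside Diphosphate Kinase-Z4 had 6.25, 6.18 and 4.70 in NF1, NF3 and NM3, against 5.96, 5.67, 6.13 and 6.40 in OF1 to OF4. NM3 alone stood below the rest, and the 95% interval of the change ran from -1.32 to 0.67.

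Cytosolic nucleotidases, which strip the phosphate from nucleotides, changed in opposite directions. The title 5'-nucleotidase, Cytosolic II, named after the enzyme that prefers IMP and GMP in mammals, had 8.74, 8.94 and 8.52 in NF1, NF3 and NM3, against 7.75, 6.65, 6.13 and 6.94 in OF1 to OF4. The nearshore animals lay close together, and OF1 was 0.77 below the lowest of them. Its log2 fold change was 1.87 (SE 0.39, adjusted p = 0.0331 in limma), a 3.65-fold higher signal.

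The title 5', 3'-nucleotidase, Cytosolic, named after an enzyme that acts on deoxynucleotides, had 7.88, 8.41 and 7.81 in NF1, NF3 and NM3, against 9.09, 9.10, 9.16 and 9.25 in OF1 to OF4. Offshore animals were nearly identical, at 9.15 ± 0.07 (SD, n = 4), and all nearshore animals were lower. The log2 fold change of -1.12 (SE 0.24, adjusted p = 0.0352 in limma) was the smallest in size of the 6 called. 5'-nucleotidase, Cytosolic III, named after a pyrimidine nucleotidase of red blood cells, had 6.41, 6.07 and 6.65 nearshore, against 6.84, 6.58, 6.84 and 6.85 offshore. NM3 was above OF2, and the log2 fold change of -0.40 (SE 0.24) did not pass. Each of the changed nucleotidases passed in 1 of the 7 fits without 1 animal, cytosolic II without OF1 and the 5', 3' enzyme without NF3. In the other 6 fits their adjusted p-values ran up to 0.0858 and 0.0994.

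Nudix hydrolases, which cleave compounds built on a nucleoside diphosphate, had 4 titles, and 0 of them passed in limma, with 1 at an unadjusted p under 0.05. Nudix-type Motif 2, named after a hydrolase of diadenosine tetraphosphate, had 2.58, 1.59 and 3.69 in NF1, NF3 and NM3, against 4.73, 3.75, 4.34 and 4.49 in OF1 to OF4. NM3 nearly reached OF2, at a distance of 0.06, and the log2 fold change was -1.71 (SE 0.50, adjusted p = 0.0804 in limma). Without NM3 the change was -2.25 and passed, with an adjusted p of 0.0363. Nudix-type Motif 19, named after a hydrolase of coenzyme A in the mouse, had 12.18, 11.41 and 10.55 in NF1, NF3 and NM3, against 11.46, 11.56, 11.08 and 11.46 in OF1 to OF4. NF1 was highest and NM3 lowest, with all offshore animals between them. Nudix-type Motif 5, named after a hydrolase of ADP-ribose, averaged 7.27 ± 0.45 nearshore and 7.63 ± 0.59 offshore. Nudix-type Motif 1, named after the hydrolase of oxidized purine nucleotides, lay between 0.84 and 1.03 in all 7 animals, at the bottom of the scale.

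Of the pair of folate titles, 1 rose. 5,10-methylenetetrahydrofolate Reductase, which commits folate carbons to the making of methionine and so away from thymidylate, had log2 values of 11.47, 10.98 and 11.04 in NF1, NF3 and NM3, against 9.29, 9.75, 9.67 and 9.35 in OF1 to OF4. Animals of each site lay close together, and the lowest nearshore value was 1.22 above the highest offshore value. Nearshore minus offshore was 1.65 in log2 (SE 0.25, adjusted p = 0.0173 in limma), a 3.13-fold higher signal. It passed in 5 of the 7 fits without 1 animal, with an adjusted p of 0.0586 without OF3 and 0.0594 without OF4. The title Methylenetetrahydrofolate Dehydrogenase, Methenyltetrahydrofolate Cyclohydrolase, Formyltetrahydrofolate Synthase, the trifunctional enzyme that prepares folate carbons for purine synthesis, had 2.10, 1.42 and 2.53 nearshore, against 1.41, 2.62, 2.23 and 2.27 offshore. Its sites overlapped at a low level, and its log2 fold change had a 95% interval from -1.03 to 0.79.

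Neither transporter title passed in limma, and at an unadjusted p under 0.05 the count was 0 as well. Pyrimidine Nucleotide Sugar Transporter, a carrier that loads nucleotide sugars into the secretory pathway, had 5.27, 6.59 and 6.45 in NF1, NF3 and NM3, against 5.22, 5.13, 5.52 and 5.35 in OF1 to OF4. NF3 and NM3 were above all offshore animals and NF1 was among them, and the log2 fold change was 0.80 (SE 0.36, adjusted p = 0.208 in limma). ATPUP11, named after a plant purine transporter, had 1.29, 1.18 and 1.19 nearshore, against 1.26, 1.998, 1.015 and 1.14 offshore, with overlapping sites at the bottom of the scale.

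The 9 titles caught by a shared word had 0 calls in limma and 0 at an unadjusted p under 0.05. Dihydrouridine Synthase 3-like, which modifies uridine in tRNA, had 5.51, 5.97 and 5.06 in NF1, NF3 and NM3, against 4.86, 4.24, 5.70 and 5.44 in OF1 to OF4, with overlapping sites. The splicing regulator Polypyrimidine Tract Binding Protein 2 had 6.87, 6.50 and 5.17 nearshore, against 5.05, 5.92, 4.86 and 4.94 offshore, a log2 fold change of 0.99 (SE 0.47), and NM3 lay within the offshore range. Its relative Polypyrimidine Tract Binding Protein 1 had 7.93, 6.80 and 7.17 nearshore, against 6.46, 6.91, 6.96 and 6.96 offshore, and a log2 fold change of 0.48 (SE 0.32), with NF3 inside the offshore range. FTSH10, a general-term title, had 2.28, 1.83 and 2.62 nearshore, against 1.88, 3.45, 3.09 and 3.71 offshore, and the sites overlapped. The 5 general-term titles and the plant ATP Phosphoribosyltransferase had log2 fold changes from -0.79 to 0.13.

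**Figure D3:**
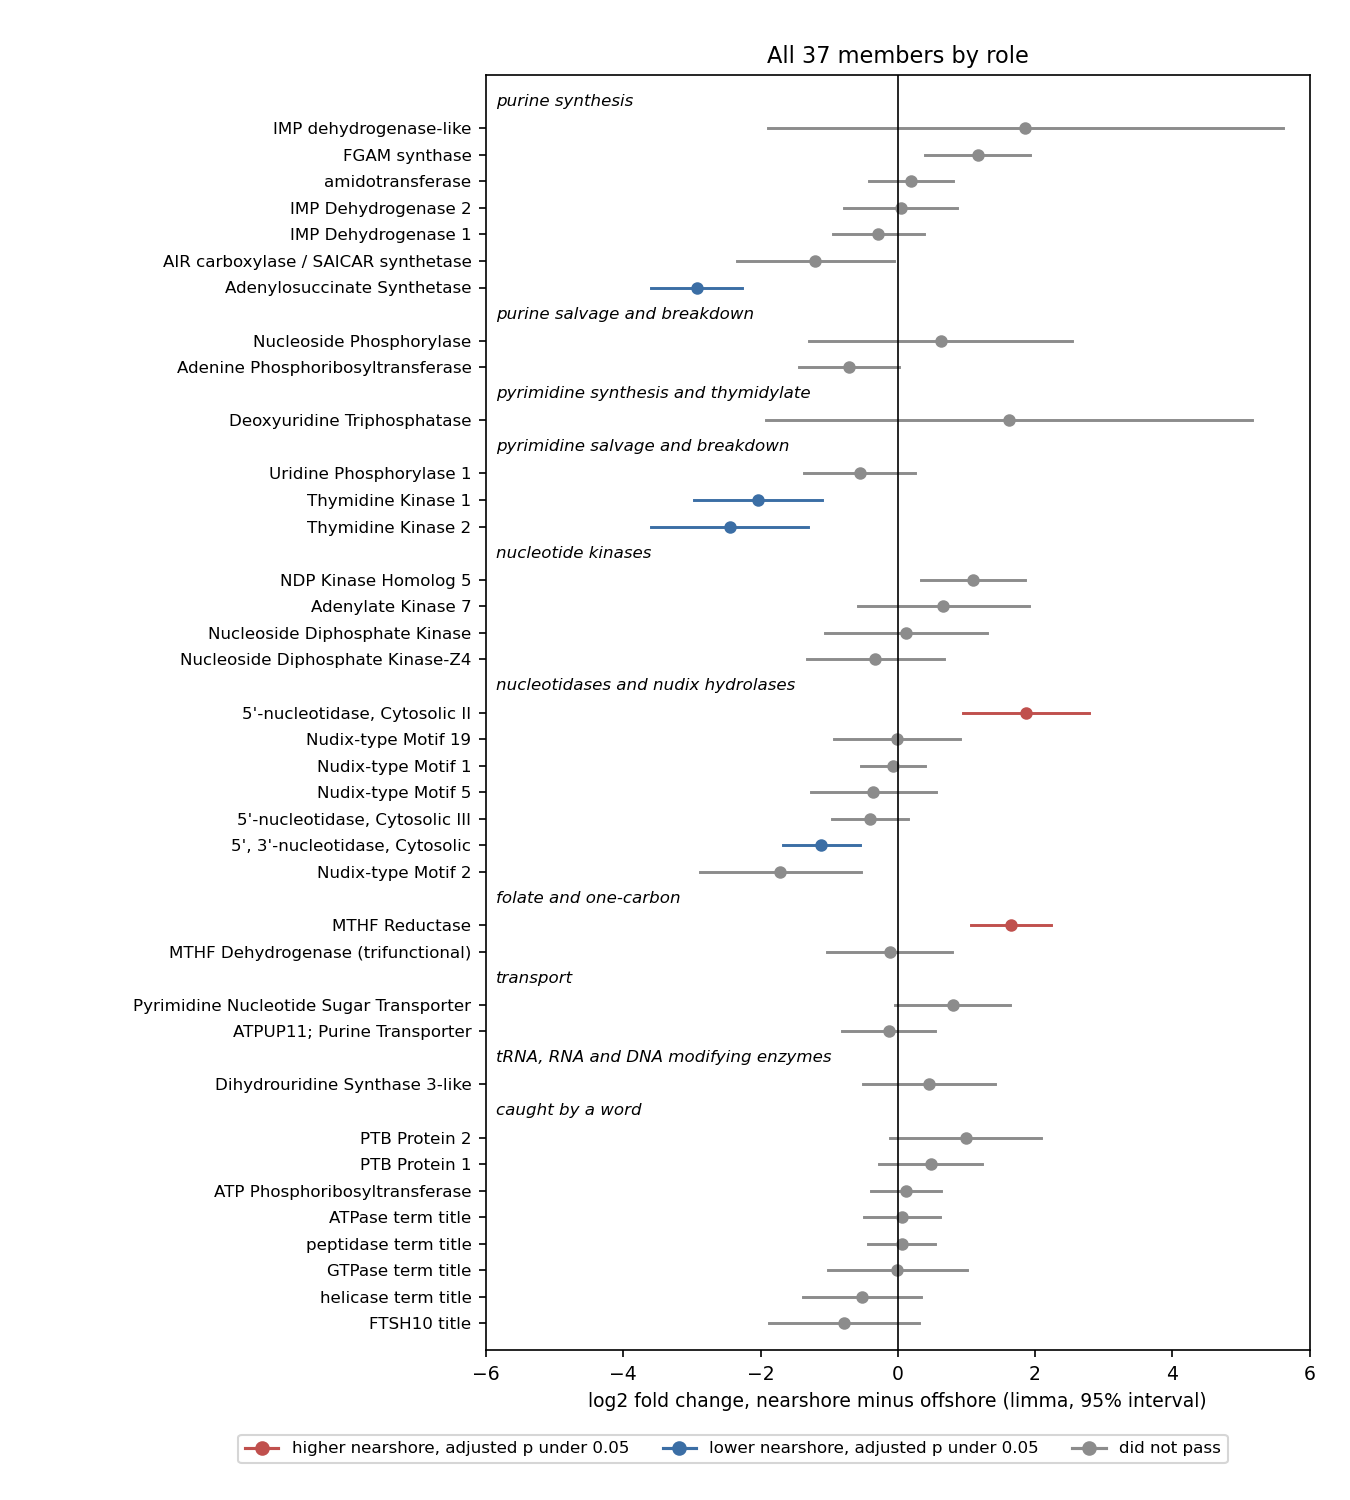
Log2 fold change, nearshore minus offshore, of all 37 titles by role (horizontal axis), with the 95% interval from limma, unadjusted for the number of titles. Red titles were higher and blue titles lower nearshore at an adjusted p under 0.05, and grey titles did not pass; some titles are shortened (FGAM synthase for Phosphoribosylformylglycinamidine Synthase, AIR carboxylase / SAICAR synthetase for the bifunctional enzyme, MTHF for methylenetetrahydrofolate, NDP for nucleoside diphosphate, PTB for polypyrimidine tract binding).

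The titles differed in how far they could be resolved. Of the 19 titles with a mean above the median of the table, 5 passed (26.3%), against 14.9% of all titles above that level. Of the 18 below it, 1 passed (5.56%), against 3.56% of all titles there. In 8 of the 37 the mean was under 2, and their median size of change was 0.07 on the log2 scale.

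**Figure D4:**
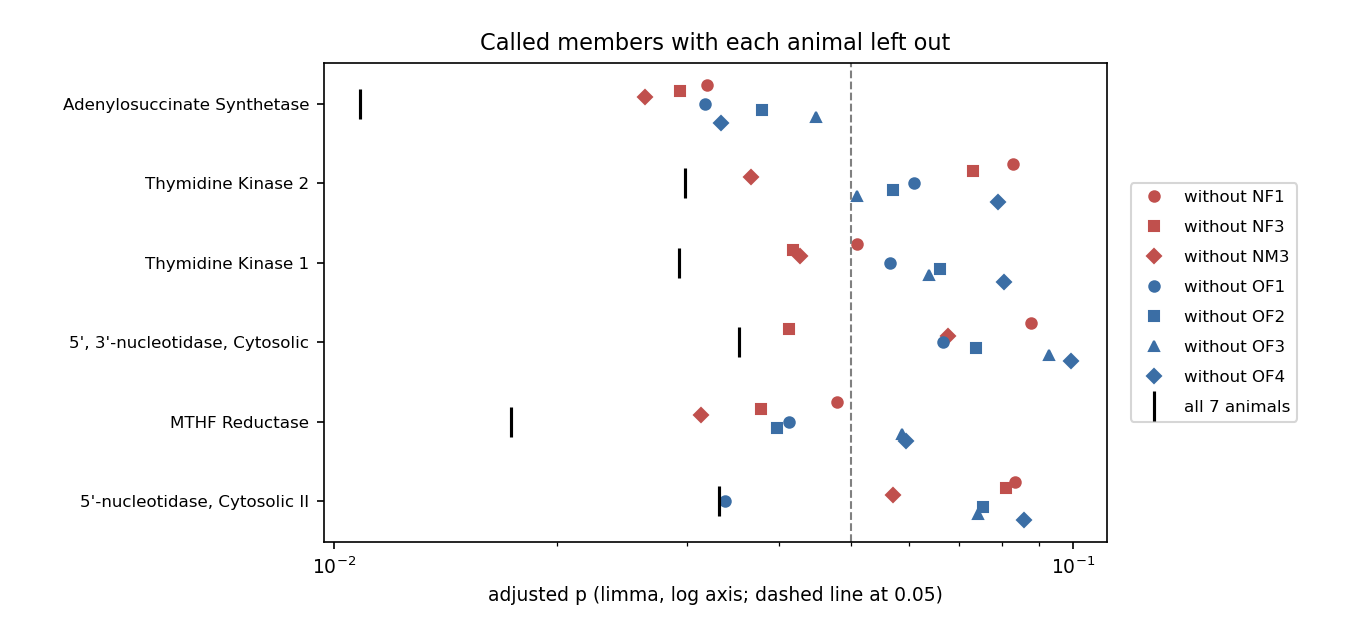
Adjusted p in limma (horizontal log axis) of the 6 changed titles with all 7 animals (black bar) and with each animal left out (red for nearshore, blue for offshore animals). Adenylosuccinate Synthetase stays left of the dashed line at 0.05 in all 7 fits, 5,10-methylenetetrahydrofolate Reductase in 5, Thymidine Kinase 1 in 2 and the others in 1.

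Other enzymes of these pathways or near them, whose titles lacked the words above, were read from lists of names. Of 9 titles listed as other nucleotide enzymes, among them one that acts on DNA, 0 passed in limma and 0 had an unadjusted p under 0.05. The trifunctional title Carbamoyl-phosphate Synthetase 2, Aspartate Transcarbamylase, And Dihydroorotase, which starts pyrimidine synthesis, had 3.91, 5.48 and 2.76 in NF1, NF3 and NM3, against 3.77, 3.76, 2.89 and 2.29 in OF1 to OF4. Ribonucleotide Reductase M2 Polypeptide, a subunit of the enzyme that makes deoxynucleotides, had 8.71, 10.76 and 10.40 nearshore, against 11.02, 10.12, 10.55 and 11.70 offshore. NF1 was the lowest animal, as it was for Thymidine Kinase 1, but here the sites overlapped, and the log2 fold change of -0.90 (SE 0.58) had an adjusted p of 0.382 in limma. Uracil-DNA Glycosylase, which removes uracil from DNA, had -0.85 as its log2 fold change (SE 0.46, adjusted p = 0.293 in limma).

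Of 11 titles that supply ribose, glutamine or folate carbons, 2 fell and 0 rose (18.2%, against 9.24% of all titles, a difference that was not tested). Glutamine Synthetase 2, which makes the amino acid that donates nitrogen to purines and pyrimidines, had 6.89, 7.73 and 6.55 in NF1, NF3 and NM3, against 9.22, 8.997, 8.38 and 9.99 in OF1 to OF4. All nearshore values were below all offshore values, and the log2 fold change was -2.09 (SE 0.45, adjusted p = 0.0353 in limma). A separate title, Glutamine Synthetase, had 4.76, 4.57 and 5.53 nearshore, against 5.55, 7.04, 6.22 and 5.62 offshore, and did not pass (adjusted p = 0.146 in limma). Transaldolase, of the pathway that forms ribose phosphate, had 2.35, 1.38 and 3.16 nearshore, against 4.15, 4.64, 5.08 and 3.62 offshore. The sites did not overlap, and its log2 fold change was -2.08 (SE 0.51, adjusted p = 0.0473 in limma). All values of Transaldolase lay below the median of the table, so the size of its change is uncertain. Each of these calls was lost in 6 of the 7 fits without 1 animal, Glutamine Synthetase 2 passing without NF3 and Transaldolase without NM3. Both titles of Ribose 5-phosphate Isomerase A, Transketolase, Transketolase-like 2, Ribulose-5-phosphate-3-epimerase and 6-phosphogluconolactonase are named after enzymes of the same pathway. Their log2 fold changes ran from -0.16 to 0.54, and none passed. Transketolase lay between 0.89 and 1.05 in all animals, at the bottom of the scale.

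Of 9 titles matched by words for cyclic nucleotides and phosphodiesterases, 1 fell and 0 rose (11.1%, against 9.24% of all titles). It was Similar To CAMP Responsive Element Binding Protein 3-like 1, a transcription factor, with 5.25, 5.14 and 5.28 in NF1, NF3 and NM3, against 6.01, 6.56, 6.92 and 6.18 in OF1 to OF4. Its log2 fold change was -1.19 (SE 0.28, adjusted p = 0.0433 in limma), and it passed in 0 of the 7 fits without 1 animal, where its adjusted p ran from 0.0526 to 0.101. Ectonucleotide Pyrophosphatase/phosphodiesterase 5, a member of a family that cleaves phosphodiester bonds outside the cell, had 11.11, 6.57 and 13.98 nearshore, against 13.77, 6.39, 12.61 and 5.21 offshore. As for Deoxyuridine Triphosphatase, OF2 and OF4 were far below OF1 and OF3, and here NF3 was low as well.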

How the data were processed

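The authors deposited 1 log2 value per gene title and array, from 1 ug of Cy3-labelled total RNA per animal, per the labels' protocols. Scanner output came from Agilent Feature Extraction, a tool named in the submitters' processing notes. The log base is not stated and was read as 2 from the range of values, 0.27 to 17.53. Column means were nearly equal, so the values were taken as normalized. Nothing on their normalization, background treatment or condensing of probes was given in the sources used here. No detection calls were used. Groups follow the location in the labels.

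Titles were matched by pattern in Python 3.11.15. The limma package (version 3.58.1, under R 4.3.3) fitted nearshore minus offshore per title (lmFit, eBayes), two-sided, with Benjamini-Hochberg adjustment over 4328 titles. SE is the moderated standard error. The number of arrays limits the precision. The fit was tested on simulated data. In 20 runs, 200 of 4275 titles were changed by 2 in log2. The fit recovered 59.6% of them, with a false share of 5.37%, so a title that did not pass may still differ. Smaller changes were not simulated, and the median size of change over the 37 titles was 0.56.

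Members, roles and lists were chosen with earlier results of these data known. Values per animal are given for each member that passed, for up to 3 with the smallest p per role, and for the 3 brightest offshore; others were chosen after their values were seen. Outside the members, listed titles that passed are named, and any other was chosen after its values were seen. A list of purinergic receptors and nucleoside carriers matched 0 titles. Over all titles 9.24% passed, and the marker lists were not tested against that share. Among marker lists of other tissues, 2 of 24 testis and sperm titles rose and 3 fell. Of 9 haemocyte titles 1 rose and 1 fell, and 1 of 13 nerve titles rose. These counts and the digestive gland sum leave out 6 titles caught by letters only (such as spermine enzymes, plectin and a transcarbamylase), chosen by name after seeing the data; no count of calls changed. Other settings were array medians set equal, quantile normalization, the dimmest 25% left out, a mean-dependent prior, array weights, each animal left out, and the 28 titles without those caught by a word.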

Additional observations from a re-analysis of the deposited data

Results flagged for a closer look

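Among the 4 offshore animals, 3 of the 40 titles examined held an animal far from the other three relative to their range. Chance flags about 1 in 20 groups, so a count of 3 in 40 is near that given by chance. Uridine Phosphorylase 1 was 7.94 in OF3, 0.66 below the next offshore animal. 5'-nucleotidase, Cytosolic III was 6.58 in OF2, only 0.25 below the next. Polypyrimidine Tract Binding Protein 1 was 6.46 in OF1, 0.46 below the next.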

How the results depend on the processing

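The 2 rises and 4 falls were also counted after quantile normalization, after median centring, without the dimmest 25% of titles and with a mean-dependent prior. Array weights gave 2 rises and 5 falls, with Nudix-type Motif 2 added. Leaving out 1 animal gave 0 to 2 rises and 1 to 4 falls, and 34 (without OF4) to 302 (without NM3) changed titles in the whole table, against 400. Without OF3 or without OF4 there were 0 rises and 1 fall. The median change over the titles was 0.12 without the dimmest 25%, -0.10 without titles caught by a word, and -0.16 to 0.078 when 1 animal was left out. The 6 called titles kept their direction in each alternative. The change turned sign in 11 titles that did not pass, among them the IMP dehydrogenase-like title, at 1.86 with all animals, and Nucleoside Phosphorylase, at 0.62. With 1 animal left out, the ranges were -0.41 to 0.41 for Nudix-type Motif 19, -0.051 to 3.52 for the IMP dehydrogenase-like title, -0.25 to 1.46 for Nucleoside Phosphorylase, -0.28 to 0.21 for IMP Dehydrogenase 2, -0.21 to 0.60 for Nucleoside Diphosphate Kinase, -0.60 to 0.18 for Nucleoside Diphosphate Kinase-Z4, -0.38 to 0.18 for the trifunctional dehydrogenase, -0.024 to 0.35 for the amidotransferase, -0.25 to 0.080 for ATPUP11, and -0.013 to 0.17 and -0.49 to 0.27 for the general-term ATPase and GTPase titles. Array weights gave 0.16 for Nudix-type Motif 19, and quantile normalization gave 0.00019 for the trifunctional dehydrogenase. No paired analysis was possible because the animals were separate wild individuals. The number of arrays limits the precision, and how far dim titles lay above background is not known.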

Other observations

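The order of the 7 animals shared by Nucleoside Phosphorylase and the IMP dehydrogenase-like title was looked up in the whole table after it was seen. Of 4275 titles with all 7 values, 4 had this order, and the other two were Pyruvate Dehydrogenase Alpha 1, an enzyme that feeds the citrate cycle, and ERD10, named after a plant dehydration protein. In ERD10 the values were 6.003, 1.78 and 3.38 in NF1, NF3 and NM3, against 1.60, 3.40, 2.97 and 2.19 in OF1 to OF4. In Pyruvate Dehydrogenase Alpha 1 they were 6.48, 4.56 and 4.98, against 4.48, 5.13, 4.96 and 4.66. NF1 stood at least 1.35 above every other animal in each of the 4 titles.

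Values in which OF2 and OF4 were each at least 2 below every other animal, as in Deoxyuridine Triphosphatase, were found in 5 of the 4275 titles. The others were Similar To Glutathione S-transferase, Sorbitol Dehydrogenase, Thiolester Containing Protein II and C3 And PZP-like, Alpha-2-macroglobulin Domain Containing 8. Sorbitol Dehydrogenase, an enzyme of sugar alcohol metabolism, had 13.63, 10.79 and 15.56 in NF1, NF3 and NM3, against 13.19, 7.79, 12.77 and 8.03 in OF1 to OF4. Thiolester Containing Protein II, of a family of innate immune proteins, had 13.29, 11.94 and 15.98, against 14.02, 9.85, 13.18 and 9.91. Among these 5 titles NM3 was the highest animal in 4, and OF1 was highest in Deoxyuridine Triphosphatase. Both patterns were noticed in the data and are given as values.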
